A study of Mus musculus with 4 samples.

Results

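The miR-99, miR-100 and miR-125 arms were followed through small RNA libraries of the mouse medial prefrontal cortex. The members were the 10 listed mature arms of miR-99a, miR-99b, miR-100, miR-125a and miR-125b, and all 10 were found by name among the 1038 known miRNAs of the deposited table. They comprise 5 arms cut from the 5′ side of their hairpins (5p) and 5 cut from the 3′ side (3p). The comparison is between mice that showed depression-like behaviour after chronic unpredictable mild stress (CUMS), a schedule of changing mild stressors applied for 3 weeks, and control mice (Control), with 2 libraries in each group. All animals were male C57BL/6 mice (C57BL/6J in the study's methods) that entered the study at postnatal day 21, without a transgene or a drug. CUMS mice entered sequencing only if their sucrose preference, Y-maze and forced swimming tests had all changed, so this group is a chosen share of the stressed animals. Tissue was taken from both hemispheres 24 hours after the tests and RNA was isolated per mouse, but whether each library held 1 animal is not given in the sources used here. The p-values therefore measure the spread between these libraries.

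A miRNA is cut as a duplex from a hairpin, and usually one strand is kept in the silencing complex while the other is degraded. The strand that is kept finds its targets mainly through the seed, bases 2 to 8 from its 5′ end. miR-125 is the vertebrate counterpart of lin-4, the developmental timing miRNA of worms, and in vertebrate genomes it often lies in a cluster with a member of the miR-99 and miR-100 family and a member of let-7. The miR-99 and miR-100 family is known for repressing the kinase mTOR and the receptor Igf1r. miR-125a and miR-125b are known in neurons for acting on mRNAs of synaptic proteins such as PSD-95 and the NMDA receptor subunit NR2A.

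The mature sequences of all members are shown with the seed in capitals, because the seeds define which arms can share targets. They are the RefSeq entries for GRCm38.p6, written 5′ to 3′, and all 10 members matched by name. The last line is miR-351-5p, which is not a member but carries the same seed as the miR-125 5p arms.
mmu-miR-99a-5p: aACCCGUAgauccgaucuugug
mmu-miR-99b-5p: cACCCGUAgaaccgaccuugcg
mmu-miR-100-5p: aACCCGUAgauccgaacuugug
mmu-miR-125a-5p: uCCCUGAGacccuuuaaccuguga
mmu-miR-125b-5p: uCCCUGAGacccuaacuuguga
mmu-miR-99a-3p: cAAGCUCGuuucuaugggucu
mmu-miR-99b-3p: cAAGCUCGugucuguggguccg
mmu-miR-125a-3p: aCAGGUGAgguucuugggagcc
mmu-miR-125b-1-3p: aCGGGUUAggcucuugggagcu
mmu-miR-125b-2-3p: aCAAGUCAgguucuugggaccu
mmu-miR-351-5p: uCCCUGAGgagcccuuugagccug

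The 5p arms fall into 2 seed groups. miR-99a-5p, miR-99b-5p and miR-100-5p share the seed ACCCGUA, and miR-125a-5p and miR-125b-5p share the seed CCCUGAG. Counting positions from 1 at the 5′ end and giving the base of miR-99a-5p before that of its partner, miR-99a-5p and miR-100-5p differ only by U16A, and miR-99a-5p and miR-99b-5p differ by A1C, U11A, U16C and U21C. miR-125a-5p and miR-125b-5p are identical over the first 13 bases and differ in length, with 24 and 22 bases. The 3p arms are less alike at the seed. miR-99a-3p and miR-99b-3p share AAGCUCG, whereas the 3p arms of miR-125a, miR-125b-1 and miR-125b-2 each carry a seed of their own. miR-125b-1-3p and miR-125b-2-3p differ by G3A, G4A, U7C, C11U and G20C, so these arms tell apart the hairpins that make the same miR-125b-5p. No stretch of 16 bases occurs in more than 1 member, which is the smallest overlap with a mature miRNA that the study's counting accepted.

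The hairpins lie in 3 clusters, each with a let-7 hairpin between its members, all on the plus strand of GRCm38 (mm10, GENCODE M21). On chromosome 16, Mir99a (chr16:77598936-77599000) and Mirlet7c-1 (chr16:77599657-77599750) are separated by 656 bp, and Mir125b-2 (chr16:77646273-77646343) follows after 46522 bp. All of them lie in introns of the noncoding host gene Mir99ahg, and Mir125b-2 also lies in an exon of C130023A14Rik. Mir99a and Mirlet7c-1 also lie in introns of the protein-coding gene Gm11146 on the opposite strand. On chromosome 9, Mir100 (chr9:41531425-41531504), Mirlet7a-2 (chr9:41536716-41536811) and Mir125b-1 (chr9:41581926-41582002) are separated by 5211 and 45114 bp within introns of the noncoding genes 3110039I08Rik and Gm49317. Mir100 also overlaps an exon of Gm48742 on the opposite strand, and Mir125b-1 an exon of Gm28119. The cluster on chromosome 17 is far more compact. Mir99b (chr17:17830188-17830257), Mirlet7e (chr17:17830352-17830444) and Mir125a (chr17:17830812-17830879) are separated by 94 and 367 bp inside the protein-coding gene Spaca6, the former pair in introns and Mir125a in an annotated exon.

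The libraries held 9589323 to 10783592 reads on known miRNAs, as recovered from the deposited group means. The letters a and b only separate the libraries of a group and carry no replicate number. The cortical label was met by the markers fixed for neurons and cortex, miR-124-3p, miR-9-5p, miR-128-3p and miR-132-3p, which together took 6.50% to 9.27% of the reads. The liver miRNA miR-122-5p had 0 or 1 read in each library. The library Control b stood apart from the others. The 8 markers of sensory and epithelial cells (miR-182-5p, miR-183-5p, miR-96-5p, miR-200a-3p, miR-200b-3p, miR-200c-3p, miR-141-3p and miR-429-3p) took 9.32% of its reads, against 0.0393% to 0.0721% in the other 3 libraries. The differences of the members are therefore also given without Control b. In tissue of this kind, fewer cells of a type cannot be told apart from less of a miRNA per cell.

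The 10 arms together were a large part of the cortical miRNA reads. They took 9.84% of the reads in Control a, 11.7% in Control b, 13.4% in CUMS a and 11.3% in CUMS b, so Control b lay between the CUMS libraries. Nearly all of these reads were on the 5p arms. miR-99b-5p and miR-125a-5p, the products of the compact cluster on chromosome 17, ranked 5 and 6 of the 1038 miRNAs by mean normalized count, miR-100-5p ranked 18, miR-125b-5p 20 and miR-99a-5p 42. The 3p arms ranked from 108 for miR-125b-1-3p to 293 for miR-125a-3p. These are read counts after ligation and PCR, and the efficiency of these steps differs between sequences, so an order of levels is an order of reads.

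**Figure D1:**
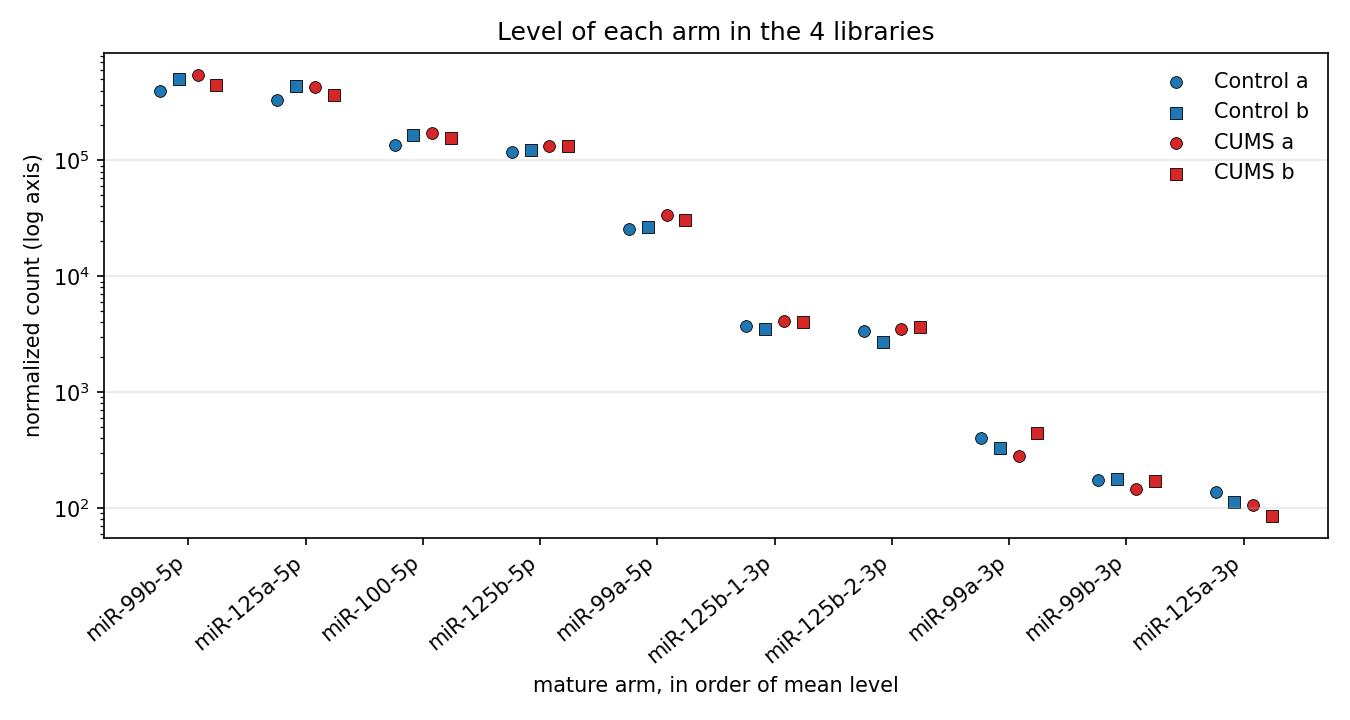
Normalized count, reads divided by the size factor of the library, of each of the 10 arms in the 4 libraries, on a log axis. Circles are libraries a, squares are libraries b, blue is Control and red is CUMS. The 5p arms lie at 25746 or above, and the lowest value is 85.8 for miR-125a-3p in CUMS b.

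Levels are given as normalized counts, the reads of a library divided by its size factor, and where a pair of values is given for a group, library a comes before library b. miR-99b-5p, the most abundant member, was at 393555 in Control a, 499880 in Control b, 544501 in CUMS a and 451055 in CUMS b. Its partner on chromosome 17, miR-125a-5p, was at 332526 in Control a, 440884 in Control b, 427482 in CUMS a and 364416 in CUMS b. In both arms Control a was the lowest library and the groups overlapped. The ranges of miR-99b-5p and miR-125a-5p over the libraries also overlapped, although miR-99b-5p was higher within every library, by 1.13 to 1.27 times.

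miR-100-5p, the chromosome 9 member of the miR-99 seed group, was at 136134 in Control a, 167015 in Control b, 173314 in CUMS a and 156509 in CUMS b. miR-125b-5p, which is made on chromosomes 9 and 16, was at 117698 in Control a, 123624 in Control b, 131953 in CUMS a and 132148 in CUMS b. miR-100-5p overlapped between the groups with Control a again lowest, whereas both CUMS libraries lay above both Control libraries for miR-125b-5p. The miR-125b-5p values also lay close together, with a ratio of the higher to the lower library of 1.05 in Control, against 1.00 in CUMS. miR-99a-5p, the chromosome 16 member of the miR-99 seed group, was the lowest 5p arm at 25746 and 26549 in Control, against 33866 and 30509 in CUMS, again without overlap. The mean of miR-99b-5p over the libraries was 16.2 times that of miR-99a-5p.

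Among the 3p arms, those of miR-125b were by far the most frequent. miR-125b-1-3p was at 3688 in Control a, 3525 in Control b, 4146 in CUMS a and 4025 in CUMS b. miR-125b-2-3p was at 3397 and 2696 in Control, against 3473 and 3684 in CUMS. Both were higher in both CUMS libraries than in either Control library. For miR-125b-2-3p Control b was the lowest library by a wide margin, and CUMS a lay above Control a only by a small margin. The ranges of the 2 arms overlapped each other.

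The remaining 3p arms were strands of low abundance. miR-99a-3p was at 399 and 327 in Control, against 282 and 445 in CUMS, so that the CUMS libraries enclosed both Control libraries. miR-99b-3p was at 175 and 178 in Control, against 145 and 172 in CUMS. miR-125a-3p was the lowest member, at 137 and 114 in Control, against 107 and 85.8 in CUMS, which came from 81 to 140 reads per library. For miR-99b-3p and miR-125a-3p both CUMS libraries lay below both Control libraries, by a small margin.

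For no member did the difference between CUMS and Control pass the test against the spread between libraries. With limma on log2(normalized count + 1), 0 of the 10 members had an adjusted p under 0.05, as had 0 of the 719 miRNAs that reached 5 reads in any library, a background of 0%. At an unadjusted p under 0.05, limma called 0 members and 28 of the 719 miRNAs (3.89%). edgeR and DESeq2 on the recovered reads also called 0 at an adjusted p under 0.05, with 30 and 24 of the 719 miRNAs at an unadjusted p under 0.05 and 0 members among them. A fold between the deposited group means past 1.5 in either direction was reached by 0 of the 10 members and by 161 of the 628 miRNAs (25.6%) whose mean reached 5 in either group, many of which have far fewer reads than the 5p arms. The folds of CUMS over Control ran from 0.770 for miR-125a-3p to 1.23 for miR-99a-5p.

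The largest upward difference was that of miR-99a-5p, at 0.30 ± 0.14 on the log2 scale (SE, 2 libraries per group), with a 95% interval from -0.03 to 0.63 and a limma adjusted p of 0.835. The difference was 0.16 ± 0.18 for miR-99b-5p (limma adjusted p = 0.886) and 0.13 ± 0.16 for miR-100-5p (limma adjusted p = 0.887), the other arms with this seed. In the miR-125 seed group it was 0.04 ± 0.19 for miR-125a-5p (limma adjusted p = 0.950) and 0.13 ± 0.13 for miR-125b-5p (limma adjusted p = 0.886). All 5p arms thus had a positive estimate, and no interval left out 0. For miR-125a-5p, miR-100-5p, miR-125b-5p and miR-125b-1-3p the 95% interval lay inside a fold of 1.5 in either direction, that is within 0.58 on the log2 scale. This held for 4 of the 10 members and for 130 of the 719 miRNAs (18.1%).

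The 3p arms went both ways. miR-125b-1-3p differed by 0.18 ± 0.14 (limma adjusted p = 0.868) and miR-125b-2-3p by 0.24 ± 0.17 (limma adjusted p = 0.835). miR-99a-3p differed by -0.03 ± 0.27 and miR-99b-3p by -0.16 ± 0.22, with limma adjusted p of 0.967 and 0.914. miR-125a-3p had the largest downward difference, -0.38 ± 0.26, with a 95% interval from -1.01 to 0.25 and a limma adjusted p of 0.835. The 3p arm of miR-125a was therefore estimated lower and its 5p arm slightly higher, and neither passed the test.

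Over the members, the median log2 difference was 0.13, beside 0.00 over all 719 miRNAs. Both CUMS libraries lay above both Control libraries for 4 members, miR-99a-5p, miR-125b-5p, miR-125b-1-3p and miR-125b-2-3p, where 16.7% of the 719 miRNAs did so. Both lay below for 2 members, miR-99b-3p and miR-125a-3p, where 17.1% did so. Of the arms above, 3 are arms of miR-125b, and miR-125b-5p is cut from the same hairpins as each of the 3p arms. With 2 libraries against 2, an exact two-sided permutation test cannot give a p below 0.333 for any of them. When reads were scaled to CPM, in proportion to the reads of a library on known miRNAs, the same 4 members lay above and 0 lay below, where 22.7% and 11.8% of the 719 miRNAs did so. On that scale the median log2 difference of all 719 miRNAs was 0.07. Without Control b, 7 members lay above Control a in both CUMS libraries and 2 lay below, where 30.5% and 30.9% of the 719 miRNAs did so.

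**Figure D2:**
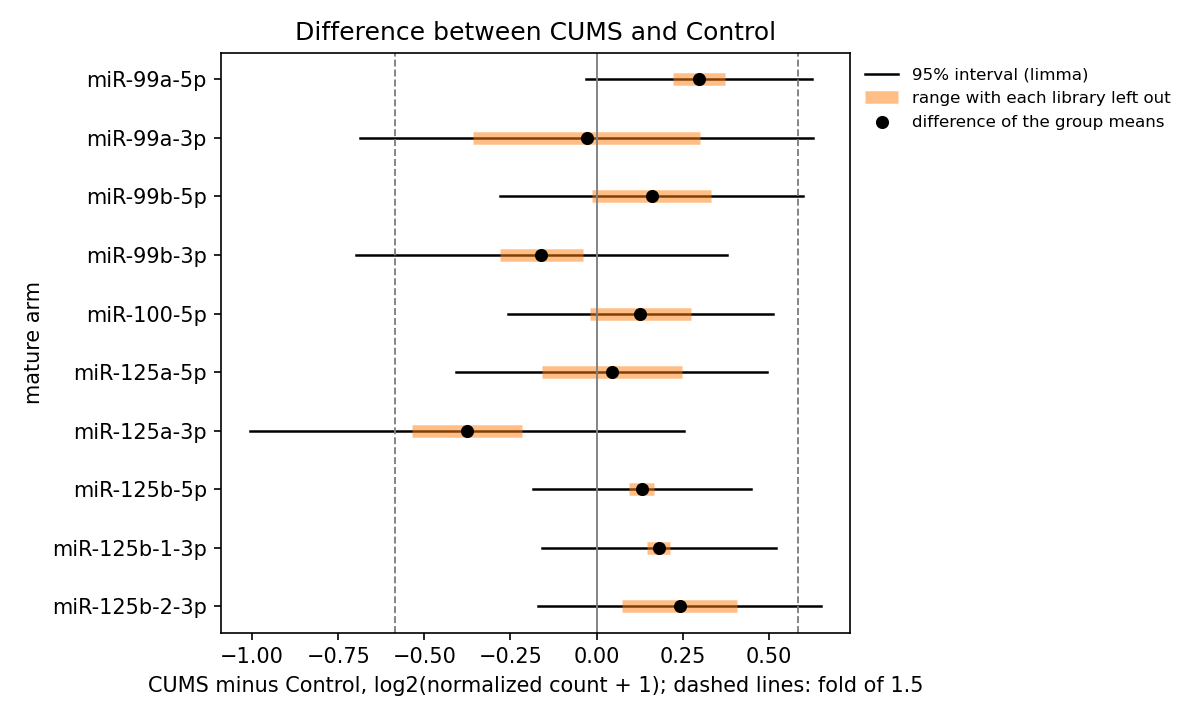
Difference between CUMS and Control for each arm on the log2(normalized count + 1) scale. Points are differences of the group means, thin lines are 95% intervals from limma, wide bars span the values obtained when each library is left out in turn, and dashed lines mark a fold of 1.5. Every interval includes 0, and the bars of miR-99a-3p, miR-99b-5p, miR-100-5p and miR-125a-5p cross 0.

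The abundant arms of miR-99b, miR-100 and miR-125a depended on which Control library was used. Without Control b, the difference was 0.33 for miR-99b-5p, 0.27 for miR-100-5p and 0.25 for miR-125a-5p. Without Control a, it was -0.01, -0.02 and -0.16, so the direction turned in all 3. The direction of miR-125a-5p also turned without CUMS a, to -0.07. Within Control, library b was above library a by 0.35 for miR-99b-5p, 0.41 for miR-125a-5p and 0.29 for miR-100-5p on the log2 scale, which is larger than each of their differences between the groups. miR-99a-5p and miR-125b-5p varied less within Control, by 0.04 and 0.07. Their differences between the groups were 0.32 and 0.17 without Control b and 0.28 and 0.10 without Control a. The difference of miR-125b-2-3p was 0.07 without Control b and 0.41 without Control a, and that of miR-125a-3p was -0.51 and -0.25. Without Control b the difference was 0.15 for miR-125b-1-3p, -0.17 for miR-99a-3p and -0.15 for miR-99b-3p. The CUMS libraries also moved the less abundant 3p arms. Without CUMS a and without CUMS b, the difference was 0.30 and -0.36 for miR-99a-3p, -0.04 and -0.28 for miR-99b-3p and -0.54 and -0.22 for miR-125a-3p. The part of the sensory and epithelial markers of Control b in these values was not tested.

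The arms were also summed over each seed group, since arms with a shared seed can share targets. miR-99a-5p, miR-99b-5p and miR-100-5p together took 5.39% of the reads in Control a, 6.43% in Control b, 7.66% in CUMS a and 6.28% in CUMS b. miR-125a-5p and miR-125b-5p together took 4.37% and 5.24% in Control, against 5.70% and 4.89% in CUMS. In both seed groups the normalized sums overlapped between the groups of mice. For the miR-125 5p arms the normalized sum was highest in Control b, at 564507, against 559435 in CUMS a, unlike the share of reads. miR-99b-5p made up 70.7% to 72.4% of the reads with its seed, and miR-125a-5p 73.4% to 78.1% of the reads of the miR-125 5p arms. miR-351-5p, the only other listed miRNA with the miR-125 seed, had 642 to 732 reads and added 0.115% to 0.159% to that seed group. Its difference between CUMS and Control was -0.10 ± 0.17 on the log2 scale.

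The share of a hairpin's reads on the 3p arm differed widely between the members and does not depend on the size factors. For miR-125b, with both 3p arms summed, it was 5.68% in Control a, 4.79% in Control b, 5.46% in CUMS a and 5.51% in CUMS b. For miR-99a it was 1.53% and 1.22% in Control, against 0.824% and 1.44% in CUMS. For miR-99b, miR-100 and miR-125a it was below 0.05% in every library. A 5p bias is thus common to all of these hairpins, and it was strongest for miR-99b, miR-100 and miR-125a.

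The miR-99a 3p share differed between the libraries of each group, with intervals that did not overlap in CUMS or in Control. Its 95% Wilson interval was 0.736% to 0.923% in CUMS a and 1.31% to 1.58% in CUMS b, while the intervals in Control were 1.39% to 1.68% and 1.09% to 1.35%. Such intervals treat each read as an independent molecule, which reads without molecular identifiers are not. They can therefore be too narrow even for counting error, and they leave out the spread between libraries. The miR-99b share was 0.0445% and 0.0356% in Control, against 0.0266% and 0.0380% in CUMS, and here too CUMS a was the lowest library. The miR-125a share was 0.0412% in Control a, 0.0258% in Control b, 0.0251% in CUMS a and 0.0235% in CUMS b. The CUMS values were thus the lowest, but both lay within the interval of Control b, which ran from 0.0215% to 0.0310%. For miR-100, whose 3p arm is not a member and had 22 to 41 reads, the share was 0.0158% and 0.0191% in Control, against 0.0201% and 0.0277% in CUMS, and the intervals of Control b and CUMS a overlapped.

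**Figure D3:**
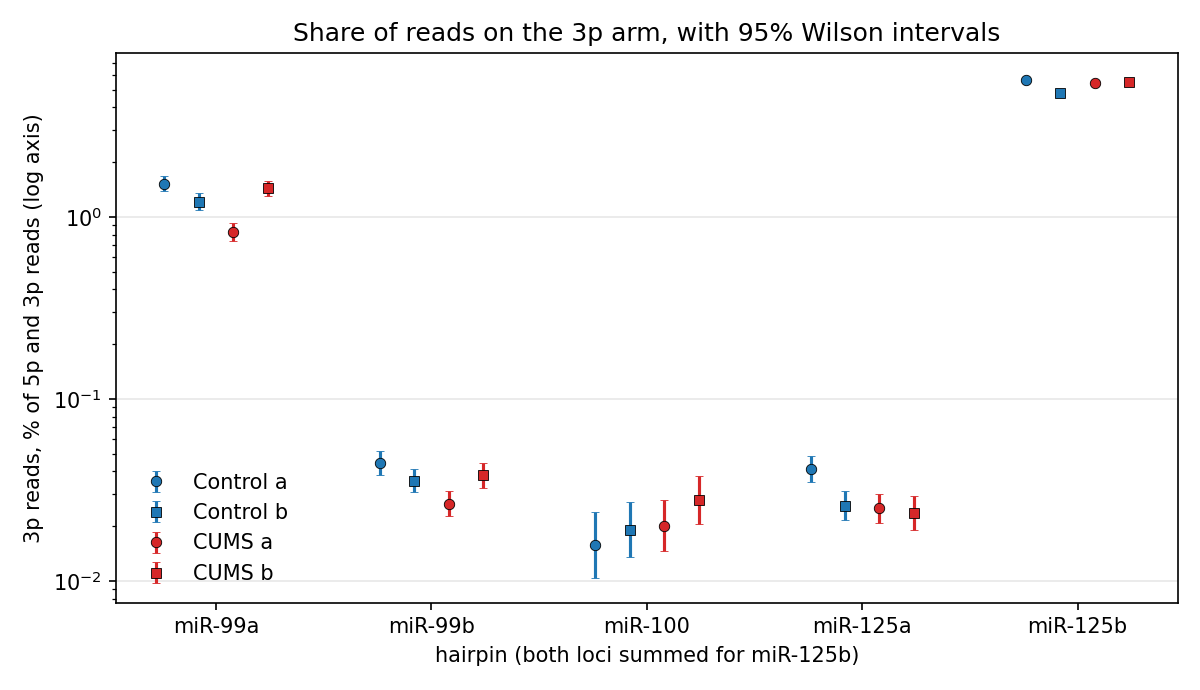
Share of the reads of each hairpin that fell on the 3p arm, in percent on a log axis, for each library with its 95% Wilson interval. The miR-125b hairpins are summed. Circles are libraries a, squares are libraries b, blue is Control and red is CUMS. miR-125b lies near 5%, miR-99a near 1%, and miR-99b, miR-100 and miR-125a lie below 0.05%.

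The miR-125b 3p arms, 4.79% to 5.68% of the miR-125b reads, were also split by hairpin of origin. Ligation and PCR efficiency can differ between these sequences, so the split is one of 3p reads, not of hairpin output. miR-125b-1-3p, from chromosome 9, made up 52.1% of both miR-125b 3p arms in Control a, 56.7% in Control b, 54.4% in CUMS a and 52.2% in CUMS b. The chromosome 9 arm was above 50% in every library, with the lowest bound of the 95% Wilson intervals at 50.9%. The share overlapped between the groups, and Control b was the highest library. Which hairpin the miR-125b-5p reads came from cannot be told from their sequence.

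Within each cluster the members were compared with the let-7 arm that lies between them. let-7 is known for repressing genes of cell proliferation. The let-7 arms moved differently from their neighbours across the libraries. let-7e-5p was at 246820 in Control a, 161849 in Control b, 170002 in CUMS a and 133967 in CUMS b, so Control a, the lowest library for miR-99b-5p and miR-125a-5p, was the highest for let-7e-5p. The ratio of miR-99b-5p to let-7e-5p, whose hairpins are separated by 94 bp, was 1.59 in Control a, 3.09 in Control b, 3.20 in CUMS a and 3.37 in CUMS b. The ratio of miR-125a-5p to let-7e-5p was 1.35, 2.72, 2.51 and 2.72 in the same order. Control a was thus the lowest library in each ratio, and the other 3 libraries lay close together. let-7e-5p differed between CUMS and Control by -0.41 ± 0.24 (limma adjusted p = 0.835), by -0.10 without Control a and by -0.71 without Control b.

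In the other clusters the ratio to the let-7 arm was likewise lowest in Control a, but the remaining libraries lay further apart. let-7a-5p was at 379182 and 261670 in Control, against 236642 and 300988 in CUMS. let-7c-5p was at 256993 and 176453 in Control, against 150623 and 228014 in CUMS. Both were highest in Control a and lowest in CUMS a, the library with the highest miR-99a-5p, miR-99b-5p and miR-100-5p. The ratio of miR-100-5p to let-7a-5p was 0.359 and 0.638 in Control, against 0.732 and 0.520 in CUMS, and that of miR-99a-5p to let-7c-5p was 0.100 and 0.150 in Control, against 0.225 and 0.134 in CUMS. These ratios overlapped between the groups. let-7a-5p and let-7c-5p are each made at more loci than the cluster named here, so their reads are not those of 1 hairpin. Outside these clusters, let-7f-5p, let-7g-5p and miR-98-5p were also highest in Control a, whereas let-7b-5p, let-7d-5p and let-7i-5p were not.

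**Figure D4:**
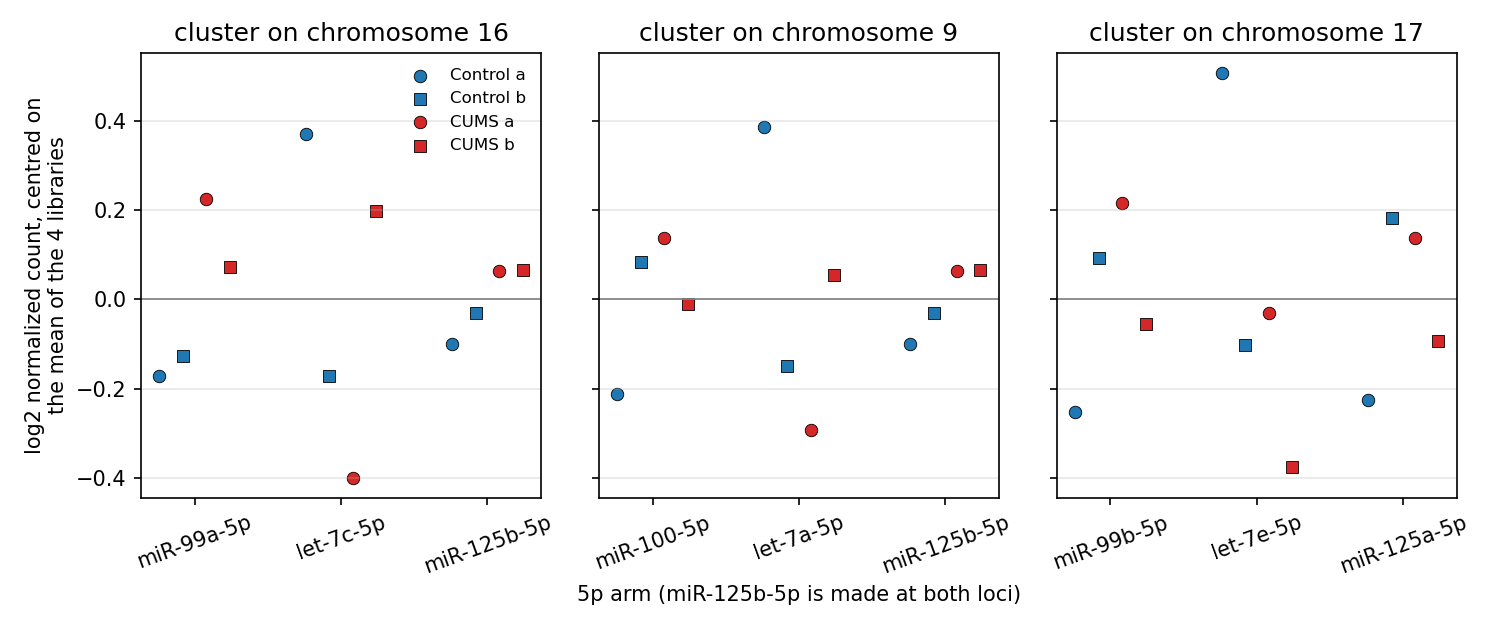
Log2 normalized count of the 5p arms of each cluster, centred on the mean of the 4 libraries. Circles are libraries a, squares are libraries b, blue is Control and red is CUMS. In each cluster the let-7 arm is highest in Control a, where the miR-99, miR-100 and miR-125 arms are at their lowest.

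Ratios between the 5p arms of the members were computed in the same way. miR-99b-5p to miR-125a-5p was 1.18 in Control a, 1.13 in Control b, 1.27 in CUMS a and 1.24 in CUMS b. miR-100-5p to miR-99a-5p was 5.29 and 6.29 in Control, against 5.12 and 5.13 in CUMS. miR-99a-5p to miR-125b-5p, the outer arms of the chromosome 16 cluster, was 0.219 and 0.215 in Control, against 0.257 and 0.231 in CUMS. In these ratios, and in that of miR-99b-5p to let-7e-5p, the groups did not overlap, but the exact two-sided permutation p of each was 0.333, the smallest that 2 against 2 libraries can give. They were 4 of 17 ratios computed and the others overlapped. Several ratios share an arm, so they are not independent. Of single miRNA levels, 16.7% of the 719 miRNAs lay above and 17.1% below in both CUMS libraries, so separation of this kind is frequent. Of the 6 shares computed, those of the 3p arms of miR-100 and miR-125a did not overlap either. Among the ratios that overlapped, miR-100-5p to miR-125b-5p, again not a ratio within a cluster, was 1.16 and 1.35 in Control, against 1.31 and 1.18 in CUMS. The ratio of miR-99b-5p to miR-100-5p was 2.89 and 2.99 in Control, against 3.14 and 2.88 in CUMS.

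Beside the members, miR-100-3p and 8 arms of let-7a, let-7c and let-7e were followed, of which let-7c-2-3p and let-7a-1-3p come from hairpins outside these clusters. Of these 9 arms, 8 passed the filter of 5 reads, and limma called 0 of them at an adjusted and 0 at an unadjusted p under 0.05. miR-100-3p, the strand opposite miR-100-5p, had 22 and 32 reads in Control, against 37 and 41 in CUMS, with a log2 difference of 0.55 ± 0.37 that was 0.83 without Control b and 0.27 without Control a. let-7c-2-3p has the mature sequence of let-7a-1-3p, and both were listed with identical reads, 27 and 9 in Control, against 22 and 42 in CUMS. let-7a-2-3p, the strand opposite let-7a-5p in the chromosome 9 cluster, had 4 reads in Control a and 0 in the other libraries, where 0 allows up to 3 reads. let-7c-1-3p, from the chromosome 16 cluster, had 12 and 9 reads in Control, against 11 and 13 in CUMS. let-7a-2-3p and let-7c-1-3p thus gave too few reads to follow their clusters. let-7e-3p, from the chromosome 17 cluster, had 46 and 27 reads in Control, against 35 and 28 in CUMS. Its log2 difference was -0.15 ± 0.38, and it was -0.51 without Control b and 0.21 without Control a.

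The miRNAs whose levels ran most like the sum of the member 5p arms were sought among 160 others with a mean of at least 1000. The distance used was the Euclidean distance of log2 levels centred over the 4 libraries. miR-342-3p was closest at 0.04, at 4338 and 5293 in Control, against 5668 and 4937 in CUMS. miR-346-5p followed at 0.07 and miR-3475-3p at 0.10. The 4 libraries share their depth and tissue with every miRNA compared, so this likeness is a description.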

How the data were processed

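Small RNA of the medial prefrontal cortex was sequenced in 2 Control and 2 CUMS libraries. The authors matched clean reads of 18 to 25 nt without mismatch to miRBase mouse precursors, counted those overlapping a mature miRNA by at least 16 nt, and compared the groups with DESeq. The submitters' processing notes name Bowtie, DESeq and mm10, and the versions used for the small RNA reads are not given in the sources used here. The signal that the authors deposited for each of 1038 miRNAs is the mean normalized count of a group, reads divided by size factors. Its columns carry no group names and were assigned by the values that the study prints for Control and CUMS. The 4 columns of the authors' comparison (a fold change, its log2 value, a p-value and an adjusted p) were not used.

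The mean of a group is the reads of one library times a step plus those of the other times a second step, so the reads of single libraries were recovered. In each group 1038 of 1038 values (100%) were whole within a relative tolerance of 1e-09. For 2 Control values another pair of whole numbers came within 10 times the residual. Size factors recomputed from the reads over 650 miRNAs, 1.02 and 1.00 in Control and 1.06 and 0.944 in CUMS, equalled those in the steps. Depth was 10533646 and 10783592 reads in Control, against 10427625 and 9589323 in CUMS, and the floor was 3 reads.

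The main test was limma 3.58.1 with a trend on log2(normalized count + 1), over miRNAs that reached 5 reads in any library, with Benjamini-Hochberg adjustment over the 719 tested. edgeR 4.0.16 (quasi-likelihood, TMM) and DESeq2 1.42.0 (Wald) on the recovered reads in R 4.3.3, other normalizations, pseudocounts of 0.5 and 5, other filters and leaving out each library were alternatives. With 1 library left in a group, its spread was taken from the other group. For the count of members outside the Control range, CPM, TMM and leaving out libraries were added after seeing the data. Recovery and tests were tested on simulated data. Python 3.11.15, numpy 2.4.6, pandas 2.3.3, scipy 1.17.1 and matplotlib 3.10.9 were used.

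The miRNAs named are the members, miR-100-3p, arms of let-7a, let-7c and let-7e (including let-7c-2-3p and let-7a-1-3p, whose hairpins lie outside the clusters), other miRNAs with a member's 5p seed, and the 3 miRNAs most like the summed 5p arms. Members and lists were chosen with earlier results of these data known. The markers of endothelial cells took 0.118% to 0.145% of reads, mural cells 1.95% to 2.89%, choroid plexus 0.124% to 0.204%, oligodendrocytes 0.0628% to 0.0776%, blood 447 to 609 reads and muscle 186 to 348 reads, with miR-206-3p not listed.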

Additional observations from a re-analysis of the deposited data

How the results depend on the processing

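The number of members with an adjusted p under 0.05 stayed at 0 under the other tests, normalizations, pseudocounts, filters and library sets run. The number past a fold of 1.5 stayed at 0 with 1 added to both means, with rescaled means, with CPM and with each library left out. With a library left out, 7 to 9 members lay outside the Control range, where 30.5% to 36.9% of the 719 miRNAs lay above and 30.9% to 34.2% below. With CPM 4 did so and with TMM 6, where 22.7% and 15.2% lay above and 11.8% and 18.1% below. The lowest adjusted p of a member ran from 0.542 without CUMS a to 0.998 with DESeq2. Of 166 recomputed log2 differences of 19 miRNAs, 155 kept their direction and 11 turned. With CPM, miR-99a-3p turned to 0.048. With each library left out in turn, it ran from -0.36 to 0.30, miR-99b-5p from -0.012 to 0.33, miR-100-5p from -0.020 to 0.27, miR-125a-5p from -0.16 to 0.25, let-7a-5p from -0.51 to 0.028, let-7c-5p from -0.50 to 0.10 and let-7e-3p from -0.51 to 0.21. The other 6 members kept their direction. At an unadjusted p under 0.05, limma called 28 miRNAs in the main test, 58 without the filter, 10 with a mean of at least 50 and 53 without CUMS a. At that limit miR-99a-5p was among 33 of 719 called with CPM and among 32 of 719 called without CUMS b. The cause was not tested. No paired analysis was possible because the recovered libraries carry no replicate numbers. Depth limits the 3p arms of miR-99b and miR-125a most, with 81 to 179 reads per library.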
